A study of Homo sapiens with 6 samples.

Results

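The genes described here were the 10 core genes of the mTOR pathway, *TSC1*, *TSC2*, *RHEB*, *MTOR*, *MLST8*, *DEPTOR*, *RPTOR*, *AKT1S1*, *RICTOR* and *AKT1*, out of 60655 genes in the count table. They were selected on the name given to each row of the table, and all 10 passed the filter on low counts that left 14507 genes for testing. The list was built around *TSC2*, which was chosen from this same comparison for being past the study's thresholds, so the difference of *TSC2* between the antibodies is given as a description and not as a finding. The other 9 genes joined it by their role in the pathway.

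RNA immunoprecipitation sequencing (RIP-seq) was done in WaGa cells, a virus-positive Merkel cell carcinoma (MCC) line of wild-type genotype that received no treatment. IGF2BP3 (also called IMP3) is an oncofetal protein that binds messenger RNAs. RNA was pulled down with an antibody to IGF2BP3 in 3 libraries (IGF2BP3 IP) and with control IgG in 3 libraries (IgG IP), and the comparison asks which RNAs are more abundant in the first. One cell line was used, the labels describe the replicates of an antibody as independent without saying what was repeated, and p-values measure the spread between these libraries.

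Library totals ran from 9758759 to 14886414 counts, and the 10 core genes held between 0.0563% and 0.0594% of them. All 12 MCC markers examined, such as *KRT20* at 430 to 633 TPM, were over 1 TPM in every library, and none of 8 markers of fibroblasts, immune cells, melanocytes, keratinocytes and endothelium was. The replicate 1 libraries stood apart. Their counts differed from those of replicates 2 and 3 of the same antibody by a chi-square per degree of freedom between 16.3 and 19.7, against 2.13 between IgG IP replicates 2 and 3 and 3.06 between IGF2BP3 IP replicates 2 and 3. These are bulk pulldowns from a single cell line, so the comparison is of RNA recovered with each antibody and not of RNA per cell.

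TSC1 and TSC2 form the complex that keeps the small GTPase RHEB in its inactive form, and active RHEB switches on the kinase MTOR. MTOR works in a pair of complexes that share MLST8 and the inhibitor DEPTOR. RPTOR and the inhibitor AKT1S1 (PRAS40) belong to mTORC1, which drives protein synthesis and holds back autophagy, and RICTOR belongs to mTORC2, which phosphorylates AKT kinases. AKT1 in turn phosphorylates TSC2 and AKT1S1, which relieves the brake on mTORC1. In MCC, the small T antigen of Merkel cell polyomavirus is known to act on 4E-BP1, a repressor of translation that mTORC1 phosphorylates.

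Short CA-rich letters are known from binding studies of IGF2BP proteins. The spelled motifs ACACA and CATCA, together with GGCA, were therefore searched on the sense strand of the canonical transcripts, with overlapping matches counted. The tested transcripts used for comparison were not limited to coding ones. *TSC2* (ENSG00000103197.18) spans chromosome 16 from 2047967 to 2089491 on the plus strand of GRCh38, and its transcript has 42 exons and 6415 bases. It held 16 matches of ACACA, 26 of CATCA and 30 of GGCA. The windows of 60 coding bases with the most matches of ACACA and CATCA were sought in 9 core transcripts, all but *DEPTOR*, and are shown for those that reach 3 matches in 1 window, written 5′ to 3′ on the strand of the gene, with the matches in capitals. They lie within single coding exons, at chr16:2064360-2064419 for *TSC2*, chr9:132905673-132905732 for *TSC1*, chr1:11228772-11228831 for *MTOR* and chr17:80962972-80963031 for *RPTOR*.
TSC2: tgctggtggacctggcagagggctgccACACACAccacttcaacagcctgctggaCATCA
TSC1: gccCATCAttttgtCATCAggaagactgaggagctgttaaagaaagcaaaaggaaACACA
MTOR: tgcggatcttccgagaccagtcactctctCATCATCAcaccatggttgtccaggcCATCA
RPTOR: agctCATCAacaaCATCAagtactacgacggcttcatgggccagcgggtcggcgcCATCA

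The *TSC2* transcript had the highest density of ACACA and of CATCA among the 10 core genes, and the lowest but one of GGCA. It held 2.49 ACACA per kb, above 92.2% of the tested transcripts, and 4.05 CATCA per kb, above 98.2% of them. All 26 CATCA matches of *TSC2* lay in its coding sequence of 5424 bases. Of its 16 ACACA matches, 11 lay in the 3′ untranslated region of 881 bases and 5 in the coding sequence. The densities and their ranks are over whole transcripts and were not taken by region. *MTOR* followed for CATCA at 3.21 per kb, with 24 of 28 matches in the coding sequence. *TSC1*, the partner of *TSC2*, had 1.51 ACACA and 1.05 CATCA per kb. *MLST8* held no ACACA in its 1671 bases but 2.39 CATCA per kb. The 4.68 GGCA per kb of *TSC2* were above 55.7% of the tested transcripts. Only *RICTOR* among the core genes had fewer, at 1.89 per kb. All 3 motifs are common, since 84.2% of the tested transcripts held ACACA, 88.2% held CATCA and 98.6% held GGCA. The median density of CATCA was 1.17 per kb over the tested transcripts and 1.52 per kb over the 169 transcripts past the thresholds, that of ACACA was 1.00 and 1.04 per kb, and that of GGCA 4.39 and 5.07 per kb. A match is a string of letters and not a binding site.

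*TSC2*, which encodes the GTPase-activating subunit of the TSC complex, was higher in every IGF2BP3 IP library than in any IgG IP library. With IgG, its counts in replicates 1 to 3 were 150, 248 and 224. With the IGF2BP3 antibody they were 352, 428 and 365. These were 16.3, 16.6 and 18.1 normalized CPM, the usual counts scaled to a common library size, against 29.6, 32.3 and 29.7, or 17.0 ± 0.957 against 30.5 ± 1.57 (mean ± SD, n = 3 each). In normalized CPM, the spread within either antibody was thus small beside the gap between them, and the replicate 1 libraries did not stand apart for this gene. In TPM, *TSC2* had 4.5, 7.67 and 6.77 with IgG and 7.83, 16.4 and 14.1 with the IGF2BP3 antibody. Replicate 1 was the lowest with either antibody on that scale. The log2 fold change was 0.84 (standard error 0.11, 95% interval 0.59 to 1.10), and the p-value that put it past the thresholds from edgeR's quasi-likelihood test was 0.013, adjusted over all tested genes by the Benjamini-Hochberg method.

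The thresholds, a fold change of at least 1.5 and an adjusted p-value under 0.05, were passed by 169 of 14507 genes in the direction of IGF2BP3 IP (1.16%) and by none in the direction of IgG IP (0%). At an unadjusted p under 0.05, edgeR had 449 genes lower, and DESeq2 also called 0. *TSC2* was the only core gene past them, and since it was chosen for this, nothing is read from the 1 in 10. Among the 169 genes it ranked 79 by log2 fold change. The call was lost when any 1 of the replicate 2 or replicate 3 libraries was left out, with adjusted p-values between 0.068 and 0.114 in edgeR and log2 fold changes between 0.80 and 0.90. It was also lost in limma-trend on TPM, where no gene passed.

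**Figure D1:**
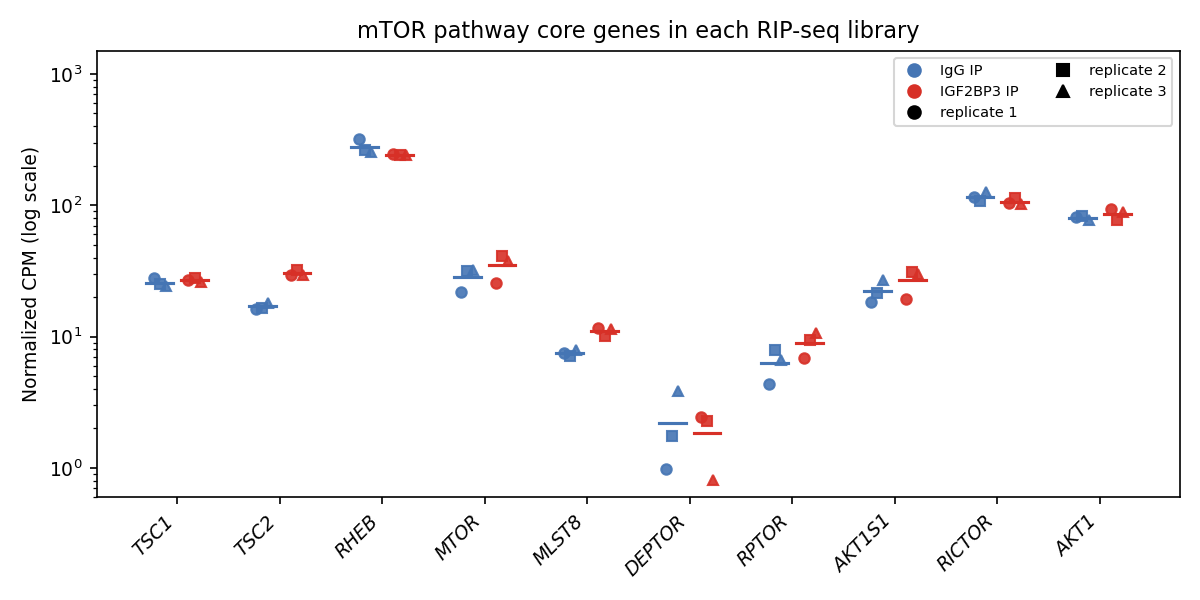
Normalized CPM (log axis) of the 10 core genes in the 3 IgG IP (blue) and 3 IGF2BP3 IP (red) libraries, with marker shapes for the replicates and bars for the means. *TSC2* and *MLST8* are higher in all IGF2BP3 IP libraries, *RHEB* is lower in all of them, and the libraries of the other 7 genes overlap.

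The other subunit, *TSC1*, did not separate the antibodies. It had 27.9, 25.1 and 24.4 CPM in IgG IP and 26.9, 27.7 and 25.9 CPM in IGF2BP3 IP replicates 1 to 3. The libraries overlapped, and the log2 fold change was 0.06 (standard error 0.11, interval -0.18 to 0.30). The ratio between the RNAs of the complex differed accordingly, through the gene that was chosen for its difference. *TSC2* over *TSC1* in normalized CPM was 0.584, 0.663 and 0.739 in IgG IP and 1.10, 1.17 and 1.14 in IGF2BP3 IP. In TPM the same ratio was 0.812, 1.44 and 0.839 against 1.36, 1.57 and 2.08. The ranges separated in CPM and overlapped in TPM, and in both scales each replicate number had the higher ratio in IGF2BP3 IP.

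*RHEB*, the GTPase that the TSC complex acts on, was ordered the other way in the counts. Its CPM were 317, 265 and 253 in IgG IP and 244, 242 and 242 in IGF2BP3 IP. All IGF2BP3 IP libraries were below all IgG IP libraries, with the widest gap at replicate 1, and the log2 fold change of -0.20 (standard error 0.096, interval -0.41 to 0.02) was not past the thresholds. In the TPM values the libraries of *RHEB* overlapped and the log2 ratio of the means was 0.05, so its sign depended on the scale. The TPM scale moved the median log2 fold change of all genes from -0.01 to 0.11 with a pseudocount of 1, and *RHEB*, at 0.05 in that fit, was below the median on either scale. Such a complete separation below IgG IP occurred for 1260 of the tested genes (8.69%), and above it for 1741 (12%). Among the core genes it was seen for 1 below and 2 above.

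*MTOR*, the kinase of both complexes, had 22.0, 31.5 and 32.3 CPM in IgG IP and 25.6, 41.3 and 37.9 CPM in IGF2BP3 IP. The replicate 1 library was the lowest with either antibody, and each replicate number was higher in IGF2BP3 IP, by 0.22, 0.39 and 0.23 on the log2 scale. The groups overlapped, and the log2 fold change was 0.28 (standard error 0.20, interval -0.17 to 0.74).

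*MLST8*, which encodes the stabilizing subunit of both complexes, was the core gene nearest to *TSC2*. It had 7.48, 7.10 and 7.90 CPM in IgG IP and 11.6, 10.1 and 11.5 CPM in IGF2BP3 IP, from 69 to 141 counts. The groups did not overlap. The log2 fold change was 0.56 (standard error 0.14, interval 0.24 to 0.88), just under the 0.58 that corresponds to the fold change minimum, and the gene was not past the thresholds. *MLST8* lies on the same chromosome arm as *TSC2*, from 2204248 to 2209453 on chromosome 16.

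*DEPTOR*, the inhibitor found in both complexes, had the fewest counts. There were 9, 26 and 48 in IgG IP and 29, 30 and 10 in IGF2BP3 IP. The ranges of the antibodies overlapped, and replicate 3 was the highest with IgG and the lowest in CPM with the IGF2BP3 antibody. The log2 fold change of -0.28 had a standard error of 0.53 and an interval from -1.48 to 0.92. The differences within same-numbered libraries were 1.32, 0.38 and -2.25, and no difference between the antibodies could be told from this spread.

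Of the subunits particular to mTORC1, *RPTOR*, the scaffold that recruits substrates, had 4.34, 7.97 and 6.61 CPM in IgG IP and 6.88, 9.44 and 10.7 CPM in IGF2BP3 IP. Its log2 fold change was 0.49 (standard error 0.25, interval -0.07 to 1.05). *AKT1S1* had 18.3, 21.6 and 26.9 CPM against 19.5, 31.3 and 30.2 CPM, with a log2 fold change of 0.27 (standard error 0.20, interval -0.19 to 0.73). Both genes overlapped between the antibodies while each replicate number was higher in IGF2BP3 IP.

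*RICTOR*, the scaffold of mTORC2, had 115, 107 and 126 CPM in IgG IP and 103, 113 and 102 CPM in IGF2BP3 IP. Its log2 fold change was -0.13 (standard error 0.090, interval -0.34 to 0.07). *AKT1* had 81.3, 82.8 and 76.7 CPM against 92.9, 77.3 and 89.4 CPM, with a log2 fold change of 0.11 (standard error 0.094, interval -0.10 to 0.32). The antibodies overlapped for both genes.

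With the replicate number as a block, the values of the core genes moved little and most standard errors were smaller. *MTOR* had 0.29 (standard error 0.087), *AKT1S1* 0.28 (0.10), *RPTOR* 0.51 (0.16), *MLST8* 0.56 (0.14) and *RHEB* -0.19 (0.061). All 9 genes other than *TSC2* stayed under a change of 1.5-fold, although *MLST8*, *MTOR*, *RPTOR* and *RHEB* then had adjusted p-values under 0.05 in edgeR, of 0.0076, 0.025, 0.029 and 0.032. These come from the comparison on which the list was built. Wider pathway genes under a 1.5-fold change, such as *PRKAB1*, *PDPK1*, *RPS6* and *PRKCA*, also had adjusted p-values under 0.05 in edgeR with the block. The share of all tested genes at this cutoff was not counted, so nothing is read from it about the core genes.

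**Figure D2:**
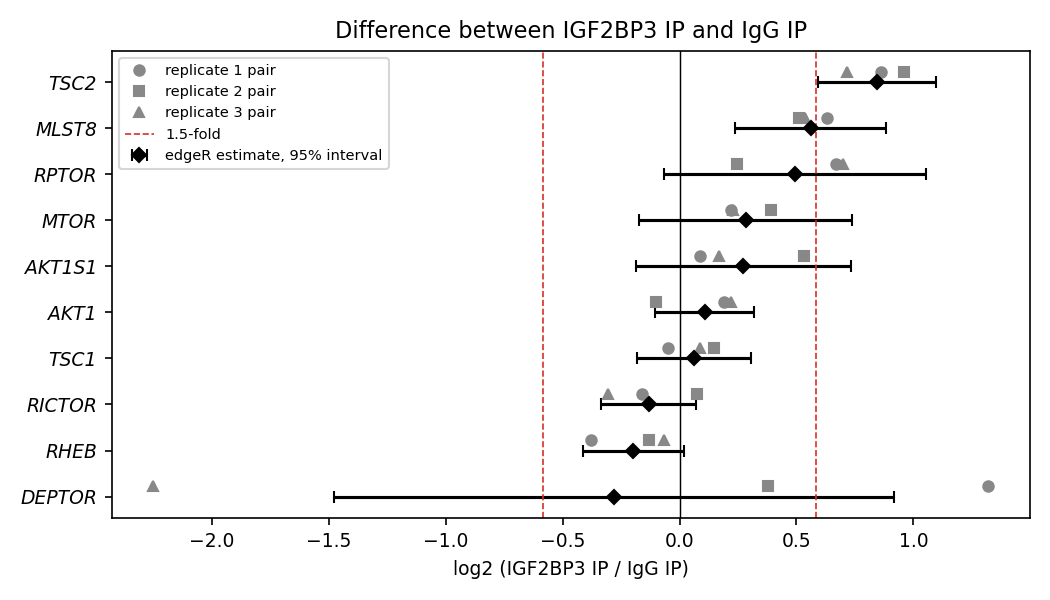
Log2 fold change of IGF2BP3 IP over IgG IP for the 10 core genes, as the edgeR estimate with its 95% interval (black) and the differences within same-numbered libraries (grey), with dashed lines at a 1.5-fold change. The estimate and interval of *TSC2* lie beyond the line, *MLST8* at 0.56 lies just inside it, and the *DEPTOR* interval runs from -1.48 to 0.92.

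Over the 10 core genes, 7 had a log2 fold change above 0, and the median was 0.19. Over all tested genes the median was -0.01, and 7091 of 14507 were above 0. The core list includes the gene that it was built on.

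The GC content of the transcripts moved with these differences. *TSC2* (60.4%), *MLST8* (63.0%), *RPTOR*, *AKT1S1* (64.1%) and *AKT1* (61.2%) are GC-rich, at 60% or more, and all had positive log2 fold changes. *RICTOR* (36.5%), *DEPTOR* (45.7%) and *RHEB* (48.0%), with negative ones, are poorer in GC, and *TSC1* (48.3%) and *MTOR* (52.3%), with positive ones, lie between or near them. The median GC content was 56.2% over the core genes, 56.4% over the 169 genes past the thresholds and 47.7% over all tested genes. Transcript length differed as well, with medians of 4686, 4670 and 3018 bases over the same sets. With a correction for length, *TSC2* stayed past the thresholds at a log2 fold change of 0.79 and *TSC1* turned to -0.025. With a correction of each library for GC content, *TSC2* stayed past the thresholds at a log2 fold change of 0.69, while *MLST8* had 0.38, *RPTOR* 0.35, *AKT1S1* 0.09, *AKT1* -0.06 and *RICTOR* 0.03. The last 2 changed sign, and the part of GC content beyond this correction was not tested.

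**Figure D3:**
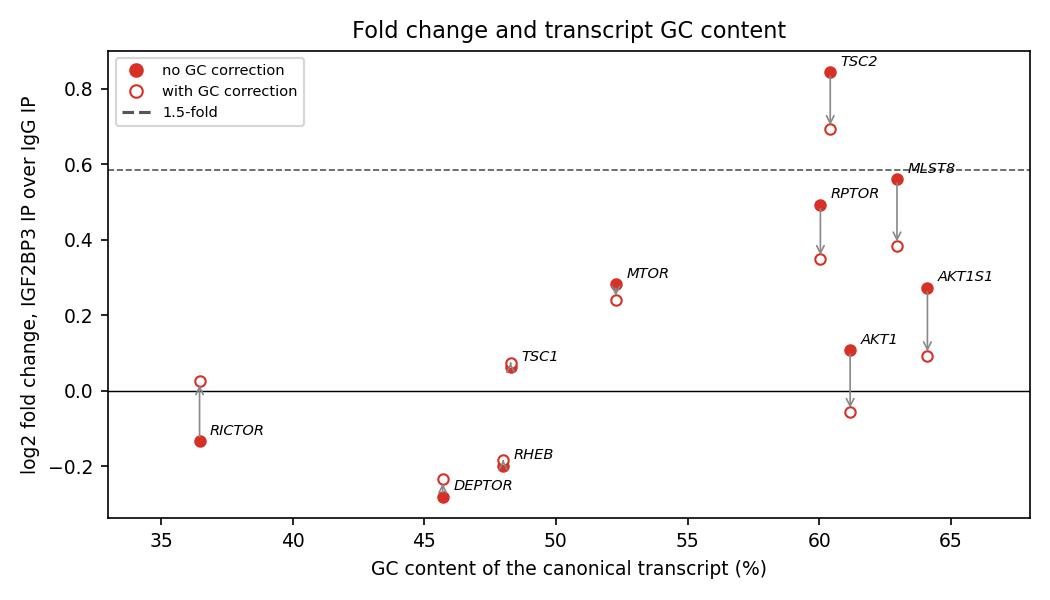
Log2 fold change of IGF2BP3 IP over IgG IP against the GC content of the canonical transcript for the 10 core genes, before (filled) and after (open) the correction for GC content, joined by arrows, with a dashed line at 1.5-fold. *TSC2* stays above the line at 0.69, and the other GC-rich genes also move down, *AKT1* to -0.06.

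Neighbouring genes share sequence with some core genes, and whether the counting used the strand is not given in the sources used here. The 3′ end of *TSC2* overlaps *PKD1*, on the opposite strand, by 784 exonic bases. *PKD1*, which encodes polycystin 1, had 305 to 487 counts and a log2 fold change of 0.14 (standard error 0.11), not past the thresholds. *NTHL1*, a DNA repair gene that starts 100 bases away from *TSC2* on the opposite strand, had -0.15 (standard error 0.19). Neither neighbour was past the thresholds or separated the antibodies by as much as *TSC2*. *MLST8* shares 201 exonic bases with *BRICD5*, which had 3 to 22 counts. The part of reads from overlapping genes in the counts of *TSC2* and *MLST8* was not tested.

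Levels of different genes were compared only per transcript length, in the authors' TPM values (a share of all transcripts after scaling for length) of the IgG IP libraries. *RHEB* was the highest of the 10 genes with 223, 260 and 246 TPM. *AKT1* had 34.6 ± 6.95, *RICTOR* 20.4 ± 1.28, *AKT1S1* 9.99 ± 4.07, *MLST8* 7.29 ± 2.22, *TSC2* 6.31 ± 1.63, *TSC1* 6.31 ± 1.53, *MTOR* 4.56 ± 1.12, *RPTOR* 1.45 ± 0.704 and *DEPTOR* 1.18 ± 0.485 TPM (mean ± SD, n = 3). *RHEB*, *AKT1* and *RICTOR* were separated from each other and from the rest by ranges that did not overlap, as were *MTOR* and *RPTOR*. In normalized CPM per kb of transcript this did not hold for *RICTOR*, at 11.3 to 13.3, which overlapped *AKT1S1*, at 9.76 to 15.2. Neighbours in the run from *AKT1S1* to *MTOR*, and *RPTOR* and *DEPTOR*, overlapped, so their order is not set. The scaffold of mTORC2 was thus listed at a higher level per length than that of mTORC1 in every IgG IP library.

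In IGF2BP3 IP, *TSC2* had 7.83, 16.4 and 14.1 TPM against 4.5, 7.67 and 6.77 TPM in IgG IP. It was the only core gene whose TPM separated the antibodies. The margin was narrow, between 7.67 TPM in IgG IP replicate 2 and 7.83 TPM in IGF2BP3 IP replicate 1. *MLST8*, separated in the counts, had 9.67, 9.55 and 10.6 TPM in IGF2BP3 IP against 5.33, 6.84 and 9.71 TPM in IgG IP and overlapped. The mean of *TSC2* in IGF2BP3 IP, 12.8 ± 4.44 TPM, was above that of *MLST8* (9.93 ± 0.552) and *TSC1* (7.66 ± 2.47).

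**Figure D4:**
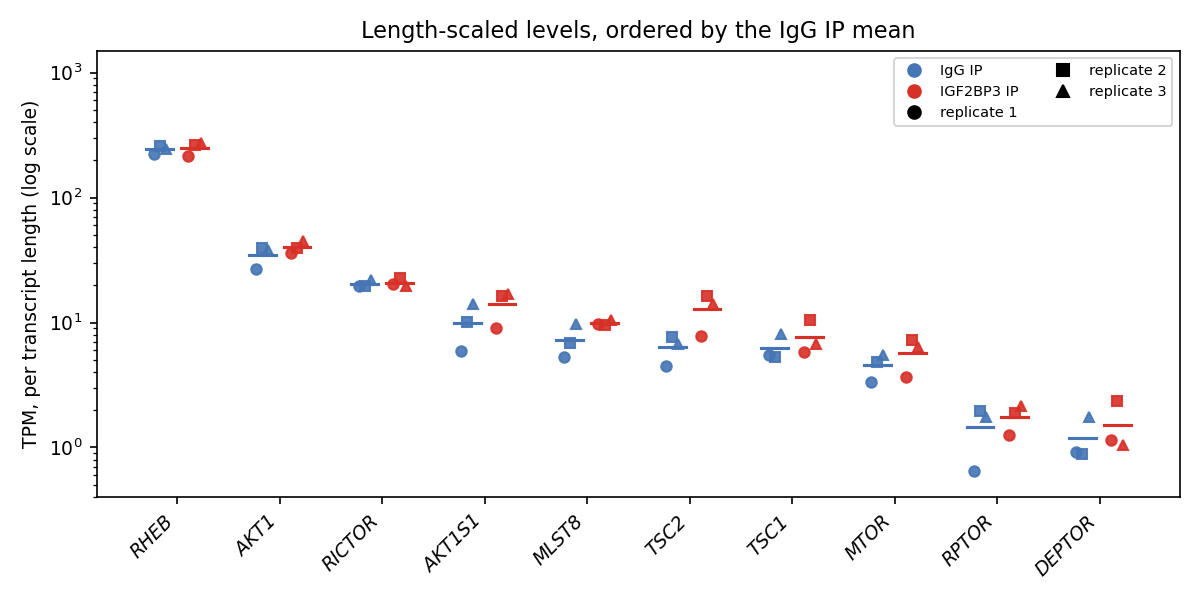
TPM (log axis), a level scaled to transcript length, of the 10 core genes in the 3 IgG IP (blue) and 3 IGF2BP3 IP (red) libraries, ordered by the IgG IP mean, with marker shapes for the replicates and bars for the means. Levels run from 243 TPM for *RHEB* to 1.18 TPM for *DEPTOR* in IgG IP, and *TSC2* alone is separated between the antibodies.

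The wider pathway was read from a list of 87 further genes in 12 roles, of which 83 were tested. None of the 83 passed the thresholds in either direction in edgeR, beside 1.16% of all genes that were higher and 0% that were lower. At an unadjusted p under 0.05, 6 were higher and 3 lower in edgeR, beside 1410 (9.72%) and 449 (3.1%) of all genes. In DESeq2, *IGF1R* passed in the direction of IGF2BP3 IP and no gene in the other. The median log2 fold change was 0.01, and 43 of the 83 were above 0. Groups that did not overlap were seen for 9 genes above (12% of all genes) and 8 below (8.69%).

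The wider gene with the highest log2 fold change was *IGF1R*, the receptor for insulin-like growth factors, whose signal reaches AKT1 through PI3K. It had 12.6, 20.4 and 21.6 CPM in IgG IP and 25.7, 40.8 and 35.3 CPM in IGF2BP3 IP. Each IGF2BP3 IP library was above each IgG IP library, and within either antibody the replicate 1 library was the lowest. The log2 fold change was 0.89 (standard error 0.22), with an adjusted p of 0.11 in edgeR. With the replicate number as a block, *IGF1R* was past the thresholds (log2 fold change 0.90, standard error 0.097), as were 517 of all genes (3.56%). It was past them as well without IGF2BP3 IP replicate 1, with an adjusted p of 0.043 in edgeR. *IRS2*, an adaptor of the same receptors, had the lowest value of this role at -0.14.

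Around PI3K and PDK1, log2 fold changes of 8 tested genes lay between -0.14 for *PIK3CA*, a catalytic subunit of PI3K, and 0.27 for *PDPK1*, which phosphorylates AKT1. The AMPK and LKB1 genes, which report low energy to the TSC complex, ran from -0.22 for *PRKAA2* to 0.43 for *PRKAB1*. The third member of the TSC complex, *TBC1D7*, had -0.03 (standard error 0.096) and the RHEB relative *RHEBL1* had -0.30 (standard error 0.20). None of these was past the thresholds.

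The further subunits of mTORC2 ran from -0.04 for *MAPKAP1* to 0.17 for *PRR5*, and the factors that assemble MTOR from 0.09 for *TTI1* to 0.26 for *TELO2*. Among the RAG GTPases and the Ragulator, which bring mTORC1 to the lysosome, *RRAGB* had the lowest value of the 83 genes at -0.41 (standard error 0.13). It had 21.0, 21.4 and 20.7 CPM in IgG IP and 14.9, 14.7 and 18.2 CPM in IGF2BP3 IP, without overlap. The highest of that role was *FLCN*, which acts on RAG GTPases, at 0.44 (standard error 0.16).

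In GATOR1, GATOR2 and KICSTOR, which pass on amino acid levels, values ran from -0.11 for *MIOS* to 0.38 for *NPRL3*, and among the amino acid sensors and stress inhibitors from -0.14 for *SESN1* to 0.32 for *SESN2*. Translation substrates ran from -0.24 for the ribosomal protein gene *RPS6* to 0.21 for *EEF2K*. Autophagy, lysosome and lipid substrates ran from -0.07 for *RB1CC1* to 0.60 for *TFEB*, a lysosomal transcription factor with 1.54 to 3.04 CPM in IgG IP. The mTORC2 substrates ran from -0.10 for *SGK3* to 0.46 for *PRKCA*. No gene of these roles was past the thresholds, and the replicate block added a call in the growth factor receptors alone.

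**Figure D5:**
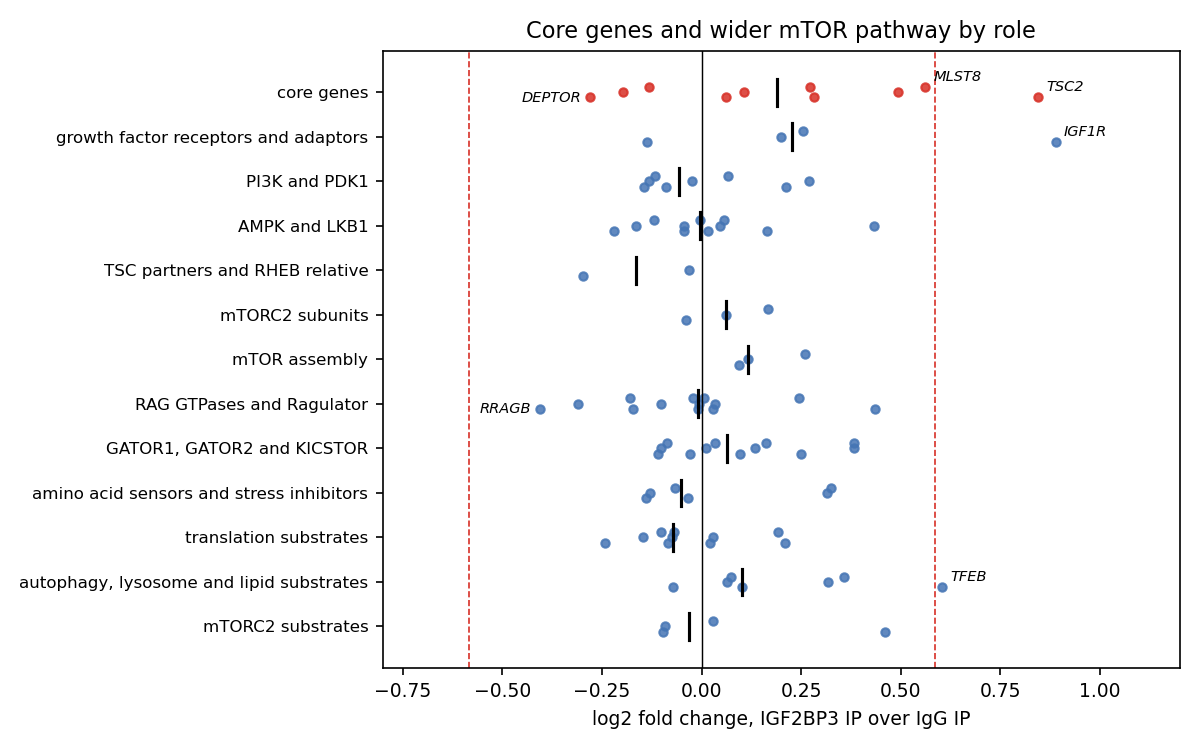
Log2 fold change of IGF2BP3 IP over IgG IP for the 10 core genes (red) and the 83 tested wider mTOR pathway genes by role (blue), with black bars for medians and dashed lines at a 1.5-fold change. *TSC2* at 0.84, *IGF1R* at 0.89 and *TFEB* at 0.60 lie beyond the line, and *TSC2* alone was past the thresholds.

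The genes whose pattern over the 6 libraries was most like *TSC2*, by Pearson correlation of log2 normalized CPM among 10957 genes with a mean of at least 50 counts, were *LINC01278*, *NFATC3*, *EPB41L4A*, *TMEM201* and *PTDSS1*, with r from 0.996 to 1.00. As a description, 638 genes had r above 0.9 over these 6 libraries, which fall into 2 groups and share their depth and composition between genes. Among the core genes, r with *TSC2* was highest for *MLST8* at 0.95 and lowest for *RHEB* at -0.75.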

How the data were processed

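RIP-seq libraries from WaGa cells, 3 with IGF2BP3 antibody and 3 with IgG, were grouped and numbered by their titles. Per the labels and the study's methods, 150 bp paired-end reads were aligned to GRCh38 with STAR 2.7.9a and RSEM was used, with GENCODE version 37. The authors deposited unnormalized whole-number counts of reads per gene, and the program and strand setting behind them are not given in the sources used here. The authors also deposited TPM and FPKM values, scaled to transcript length.

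After filterByExpr and TMM scaling, edgeR 4.0.16 in R 4.3.3 fitted the counts by quasi-likelihood, and condition alone was in the design. Genes past the thresholds had 1.5-fold or more and p under 0.05 after Benjamini-Hochberg adjustment. A standard error is the fitted log2 value divided by root F. Deviations from the group means correlated across genes between libraries of the same number (0.55, 0.26 and 0.22 for replicates 1, 2 and 3). Replicate 2 with replicate 3 of the other antibody also gave 0.27 and 0.26. The numbers were taken to pair the libraries in the replicate block and in differences within a number. The main fit, and the counts of genes from it, left this pairing out. Alternatives were DESeq2 1.42.0, limma-voom and limma-trend (limma 3.58.1), other scaling and filters, loess corrections (span 0.5) for GC content and length, the replicate block and each library left out.

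Transcripts came from GENCODE version 44 on GRCh38, in which 60437 of 60655 identifiers were found. The members and gene lists were chosen with earlier results of these data known. Named are the core genes, their neighbours, wider pathway genes past the thresholds, the highest and lowest of each role, and the 5 genes most like *TSC2*. *GRB10*, *PIK3CD*, *CASTOR1* and *EIF4EBP3* were too low to be tested, and a further pathway gene is not reported here. The fits were run on simulated counts with known changes and a common dispersion. That simulation held no replicate, GC or length effect, so it could not check the replicate block or those corrections.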

Additional observations from a re-analysis of the deposited data

How the results depend on the processing

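Past the thresholds, 169 genes were higher and 0 lower. With no filter beyond 1 count these were 359 and 1, with the replicate block 517 and 15, with GC correction and replicate block 345 and 24, and without both replicate 1 libraries, an alternative chosen after seeing the data, 466 and 8. DESeq2 gave 281 higher, the GC correction 111 and limma-trend on log2(TPM + 1) or log2(TPM + 0.1) 0, with 476 and 617 at 1.5-fold and an unadjusted p under 0.05. Leaving out 1 library gave 0 to 244 higher. The core count was 1, except 0 with limma-trend on either TPM scale and 0 to 1 with 1 library left out, where IgG IP or IGF2BP3 IP replicates 2 and 3 each gave 0. The wider pathway count was 0, except 1 with DESeq2, no filter, the replicate block, the GC correction with block and without both replicate 1 libraries, and 0 to 1 with 1 library left out, where IGF2BP3 IP replicate 1 gave 1. The replicate block changed no other call of a named gene than that of *IGF1R*. The causes were not tested.

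*TSC2* had a log2 fold change between 0.69 and 0.97 over the 13 other settings. Of the core genes without a call, *DEPTOR* turned from -0.28 to 0.19 and 0.31 with limma-trend, to 0.39 and 0.056 when the replicate 3 library of IgG IP or of IGF2BP3 IP was left out, *RHEB* from -0.20 to 0.046 and 0.046 and *RICTOR* from -0.13 to 0.035 and 0.037 with limma-trend, *RICTOR* to 0.026 and 0.030 and *AKT1* from 0.11 to -0.057 and -0.060 with GC correction without and with block, and *TSC1* from 0.06 to -0.025 with length correction. The signs of wider genes near 0 turned in some settings. *TBC1D7* had 0.011 with library totals only, 0.15 and 0.15 with limma-trend, 0.031 with length correction and -0.094 to 0.014 with 1 library left out. *PRR5* had -0.048 with GC correction, -0.070 with block added and -0.00442 to 0.39 with 1 library left out. *MAPKAP1* had 0.00444 with library totals, 0.12 and 0.12 with limma-trend, 0.00152 without both replicate 1 libraries and -0.080 to 0.021 with 1 left out. With limma-trend on the 2 TPM scales, GC correction and GC correction with block, *PIK3CA* had 0.028, 0.030, 0.022 and 0.024, *MIOS* 0.067, 0.075, 0.019 and 0.018, *RB1CC1* 0.16, 0.16, 0.074 and 0.074, and *SGK3* 0.21, 0.21, 0.049 and 0.050. With 1 library left out, *SGK3* had -0.19 to 0.042, *IRS2* -0.27 to 0.028, *SESN1* -0.33 to 0.033 and *RPS6* -0.43 to 0.10. The median of all genes was -0.01, and 0.11 and 0.13 on the limma-trend scales and 0.034 with library totals only, so *TBC1D7* and *MAPKAP1* stayed below it with library totals, as did *RHEB*, *RICTOR*, *PIK3CA* and *MIOS* with limma-trend. FPKM kept 8 and counts per kb 6 of the 10 ranks of core levels. *DEPTOR* had 9 to 48 counts and replicate pairs that differed in sign.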

Other observations

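*TSC1* moved differently in TPM and in counts at replicate 2. Between IgG IP and IGF2BP3 IP replicate 2 it went from 5.32 to 10.4 TPM, while its normalized CPM were 25.1 and 27.7. At replicate 3 the TPM were 8.07 and 6.76 and the CPM 24.4 and 25.9. The RNA of *IGF2BP3* itself did not separate the antibodies, with a log2 fold change of -0.04 (standard error 0.075).

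*RHEB* over *TSC2*, the RNA of the GTPase over that of its inactivating subunit, was 19.5, 15.9 and 14.0 in normalized CPM in IgG IP and 8.24, 7.48 and 8.15 in IGF2BP3 IP. In TPM it was 49.6, 34.0 and 36.4 against 27.7, 16.1 and 19.5. The ranges were separated on both scales, and the ratio contains the gene that the list was built on. *RPTOR* over *RICTOR*, the scaffold of mTORC1 over that of mTORC2, was 0.0376, 0.0745 and 0.0524 in normalized CPM against 0.0667, 0.0837 and 0.105, and its ranges overlapped.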
